A study of Mus musculus with 6 samples.

Results

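The genes that bring fatty acids into muscle and activate them were examined in gastrocnemius, a calf muscle, of DGAT1 transgenic and WT mice. The genes were Lpl, Gpihbp1, Cd36, Slc27a1, Slc27a4, Fabp3, Acsl1, Acsl3, Acsl5 and Acsl6, and a probe set was a member when its platform gene symbol was or included 1 of these. The rule used no measured value. It found 12 of the 41345 probe sets of the Affymetrix Mouse Gene 2.0 ST array, for 9 of the 10 genes, and Acsl1 was not analysed here. Each of the 3 transgenic and 3 WT mice had 1 array, and the labels call them biological replicates. All 6 were males, 3 months old, with a strain background labelled C57 (C57BL/6 in the methods), and no treatment other than the genotype is given. The labels give the transgenic genotype as "DGAT1 knockout transgenic", whereas the methods of the study describe a porcine DGAT1 cDNA driven by the muscle creatine kinase (MCK) promoter. Expression from that promoter is largely limited to striated muscle fibers, while capillary endothelium and adipocytes of the same muscle also express several of the members. Mouse Dgat1, the check of the labels, had a mean log2 value of 7.82 ± 0.23 in the 3 transgenic mice and of 7.67 ± 0.36 in the 3 WT mice (SD). Whether its probes also detect the porcine cDNA was not tested.

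Muscle takes most of its long-chain fatty acids from the blood in several steps. Lipoprotein lipase, anchored to the capillary wall, frees fatty acids from circulating triglyceride, and membrane proteins help them to cross the endothelium and the fiber membrane. Inside the fiber they are carried by a small binding protein. Acyl-CoA synthetases then join them to coenzyme A, and only these acyl-CoAs can be oxidized or esterified to triacylglycerol, the reaction that DGAT1 completes.

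No member passed a test for a difference between transgenic and WT mice. By limma's moderated test, 0 of the 12 probe sets passed the study threshold, which the methods set at 1.5-fold and an unadjusted p under 0.05, beside 1.49% of all probe sets. At an unadjusted p under 0.05 with no fold minimum the count was also 0 of 12, beside 2.9% of all probe sets. By the methods' t-test 0 of 12 passed at either threshold, beside 0.68% and 3.3% of all probe sets. The adjusted p from limma was 1 for each member. Transgenic means were lower for 8 probe sets and higher for 4, and 51.2% of all probe sets had a lower transgenic mean. The median log2 fold change of the 12 was -0.10 and that of all probe sets -0.01. The median became -0.24 without WT replicate 3 and -0.05 without transgenic replicate 2.

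The intervals show how large a change these arrays leave possible. For 11 of the 12 probe sets the 95% confidence interval lay within a 2-fold change either way, as it did for 82.2% of all probe sets. For 5 it lay within a 1.5-fold change, as it did for 18069 of all 41345 probe sets. The 12th, the second probe set of Lpl, had an interval of 0.425- to 3.93-fold. In a whole muscle sample, fewer cells of a type and less RNA per cell cannot be told apart.

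**Figure D1:**
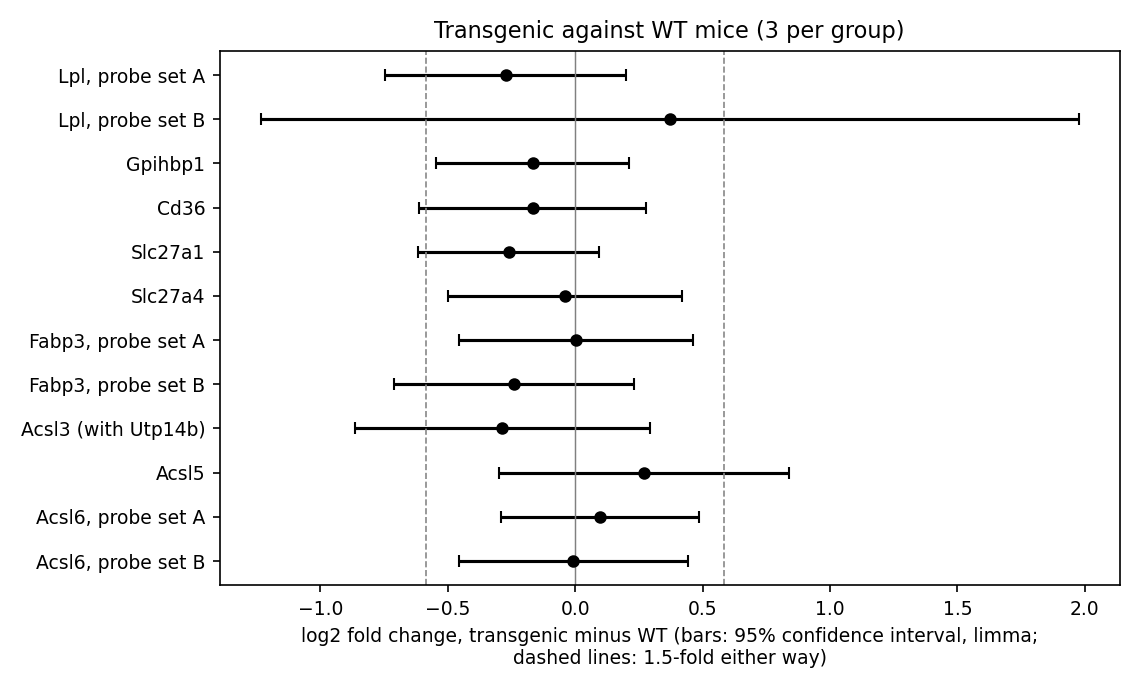
Log2 fold change (transgenic minus WT, 3 mice per group) of the 12 member probe sets, with 95% confidence intervals from limma as bars and a 1.5-fold change either way as dashed lines. Every interval crosses 0, from the lowest estimate of -0.29 for the Acsl3 probe set to 0.37 for Lpl probe set B, whose interval is the widest.

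The arrays themselves were alike in scale. Their median log2 values were 5.71 to 5.88, and correlations between arrays over all probe sets, which are not independent replicates, were 0.94 to 0.97. Muscle fiber markers were bright, with mean log2 values of 12.66 to 12.78 in transgenic and 12.79 to 12.84 in WT mice. The mean of the slow fiber markers was 7.79 to 7.82 in transgenic and 7.84 to 8.27 in WT mice. Both list means were thus lower in all transgenic mice, though the nearest mice of the 2 groups almost met. Of 6 slow fiber probe sets 3 had all transgenic values below all WT values, beside 4.31% of all probe sets, and Tnnt1 had a higher transgenic mean. Of 9 muscle fiber probe sets 0 lay apart below, and 1 of Ckm had all transgenic values above all WT values. Endothelial markers overlapped, at 8.61 to 9.14 and 8.62 to 8.87. The 5 adipocyte markers measured of 7 had means of 7.06 to 7.74 and 6.68 to 7.55, and all 5 had a higher transgenic mean, as had all 5 macrophage markers (list means 6.94 to 7.56 and 6.72 to 6.97). Of the macrophage markers, 3 had all transgenic values above all WT values, while the groups lay apart in either direction in 7.21% of all probe sets. Cd68 passed the study threshold at 1.56-fold (adjusted p = 1, limma), as did 1.49% of all probe sets. By the methods' t-test Cd68 did not pass it (unadjusted p = 0.0688). A list of 8 hepatocyte genes varied more, from 5.48 to 9.21 among transgenic and from 5.45 to 9.12 among WT mice. The part of any of these lists in the values of the members was not tested.

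Lpl encodes lipoprotein lipase, the enzyme that hydrolyzes triglyceride of circulating lipoproteins (GRCm38.p6, chr8:68880555-68906932). Its first probe set, called A (17501633), gave log2 values of 11.41, 11.16 and 11.71 in transgenic replicates 1 to 3 and 11.59, 11.95 and 11.55 in WT replicates 1 to 3. Transgenic replicate 2 was the lowest mouse and WT replicate 2 the highest, and the groups overlapped. The transgenic mean was 11.43 ± 0.27 (SD, n = 3) and the WT mean 11.70 ± 0.22 (SD, n = 3), which gave 0.828 of the WT level (95% confidence interval 0.597 to 1.15, adjusted p = 1, limma). The direction was kept in all 6 fits that left out 1 mouse, with log2 fold changes of -0.41 to -0.14.

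The second probe set of Lpl, called B (17509775), gave another picture. Its log2 values were 9.06, 8.48 and 9.39 in transgenic mice and 9.27, 9.61 and 6.94 in WT mice. WT replicate 3 lay below every other mouse, while the other 5 mice kept the order they had on probe set A. With all 6 mice the log2 fold change was 0.37 (standard error 0.68), and without WT replicate 3 it was -0.46. The sign on this probe set therefore rested on 1 array. With array quality weights, which gave WT replicate 3 a weight of 5.15 and the others 0.370 to 1.53, this probe set passed the study threshold at 3.48-fold (adjusted p = 0.246, limma). With these weights 6.31% of all probe sets passed that threshold. Lpl probe set B was the only call at the study threshold that any setting made among the members.

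Where the probe set numbers fall sets this second probe set apart as well. The array's probe sets are numbered along the chromosomes, strand by strand. Of 18022 probe sets with 1 symbol and a gene of known strand, 16683 were numbered among genes of their own strand. This was judged by their 20 nearest named neighbours, of which at least 15 had to agree, and 683 probe sets stayed unclear. Lpl probe set A stood among genes of the plus strand of chromosome 8 (19 of 20 neighbours), and probe set B among genes of the minus strand (19 of 20). Fabp3 and Acsl6, both plus strand genes, also had a second probe set numbered among minus strand genes of their chromosome (19 of 20 and 20 of 20 neighbours). The strand that these probe sets read is not given in the sources used here.

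WT replicate 3 was often low on such probe sets. Of the probe sets numbered among genes of the opposite strand with a mean log2 value of at least 8, WT replicate 3 lay over 1 log2 unit below all 5 other mice in 14 of 34 (41.2%). Among probe sets numbered with their own strand it did so in 0 of 2733. At all levels the counts were 29 of 574 (5.05%) and 3 of 16683 (0.018%). The median difference of WT replicate 3 from the mean of the other WT mice was -0.91 for the 34 and 0.07 for the 2733, and it was -2.50 for Lpl probe set B. The dimmer second probe sets of Fabp3 and Acsl6 had differences of -0.10 and -0.07. What makes WT replicate 3 low there was not tested. Without these 3 second probe sets, a choice made after seeing the data, the median log2 fold change of the members was -0.17.

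**Figure D2:**
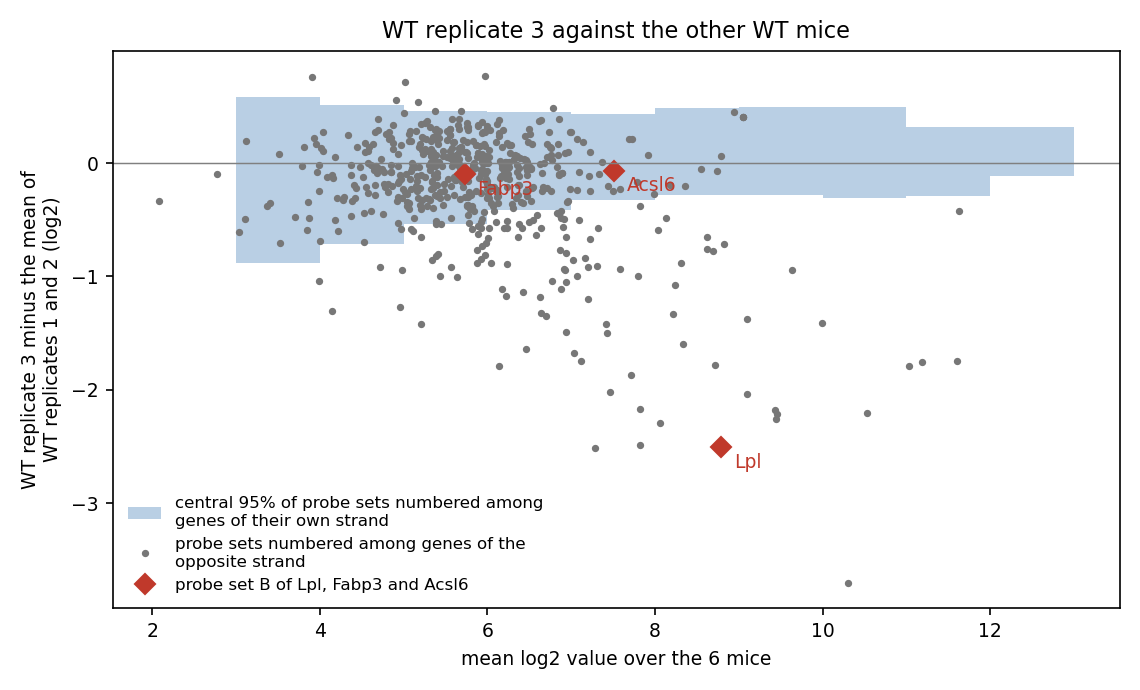
Difference of WT replicate 3 from the mean of WT replicates 1 and 2 (log2, vertical axis) against the mean log2 value over the 6 mice (horizontal axis), with 1 gray point for each probe set numbered among genes of the opposite strand, red diamonds for probe sets B of Lpl, Fabp3 and Acsl6, and a blue band for the central 95% of probe sets numbered among their own strand. Lpl probe set B, at -2.50, lies far below the band with many of the brighter gray points, and Fabp3 and Acsl6, at -0.10 and -0.07, lie within it.

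Gpihbp1 encodes the protein that carries lipoprotein lipase across capillary endothelium and holds it on the vessel wall (chr15:75596630-75598213). Probe set 17312236 gave log2 values of 8.38, 8.20 and 8.42 in transgenic mice and 8.72, 8.36 and 8.42 in WT mice. WT replicate 1 was high and transgenic replicate 2 low, and the other 4 mice lay close together between them. The transgenic level was 0.890 of the WT level (95% confidence interval 0.684 to 1.16, adjusted p = 1, limma).

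Cd36 encodes a scavenger receptor that takes up long-chain fatty acids in muscle, endothelium and fat (chr5:17781690-17888959). On probe set 17445715 the log2 values were 11.60, 11.24 and 11.74 in transgenic mice and 11.71, 11.87 and 11.50 in WT mice. As for Lpl, transgenic replicate 2 was lowest and WT replicate 2 highest. The transgenic level was also 0.890 of the WT level (95% confidence interval 0.654 to 1.21, adjusted p = 1, limma), and the log2 fold change turned from -0.17 to 0.04 with array quality weights.

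Slc27a1 encodes FATP1, a membrane-bound protein of muscle and fat with transport and acyl-CoA synthetase activity (chr8:71568728-71587307). Its log2 values on probe set 17502233 were 8.70, 8.45 and 8.65 in transgenic mice and 8.92, 8.95 and 8.72 in WT mice. All 3 transgenic mice lay below all 3 WT mice, though transgenic replicate 1 and WT replicate 3 nearly met. Slc27a1 was the only 1 of the 12 probe sets whose groups did not overlap, beside 7.21% of all probe sets (4.31% with the transgenic mice below). The transgenic level was 0.834 of the WT level (95% confidence interval 0.652 to 1.07, adjusted p = 1, limma). The exact permutation test gave p = 0.1 (two-sided), the smallest that 3 mice against 3 allow. Leaving out 1 mouse at a time gave log2 fold changes of -0.33 to -0.19.

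Slc27a4 encodes FATP4, a relative of FATP1 found in many tissues (chr2:29802634-29817522). Its values on probe set 17368904 were 7.00, 7.10 and 6.94 in transgenic mice, inside the WT values of 7.20, 6.68 and 7.29. The WT mice held both the lowest and the highest value. The ratio of transgenic to WT level was 0.973 (95% confidence interval 0.707 to 1.34, adjusted p = 1, limma), and its sign turned when WT replicate 1 or WT replicate 3 was left out.

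**Figure D3:**
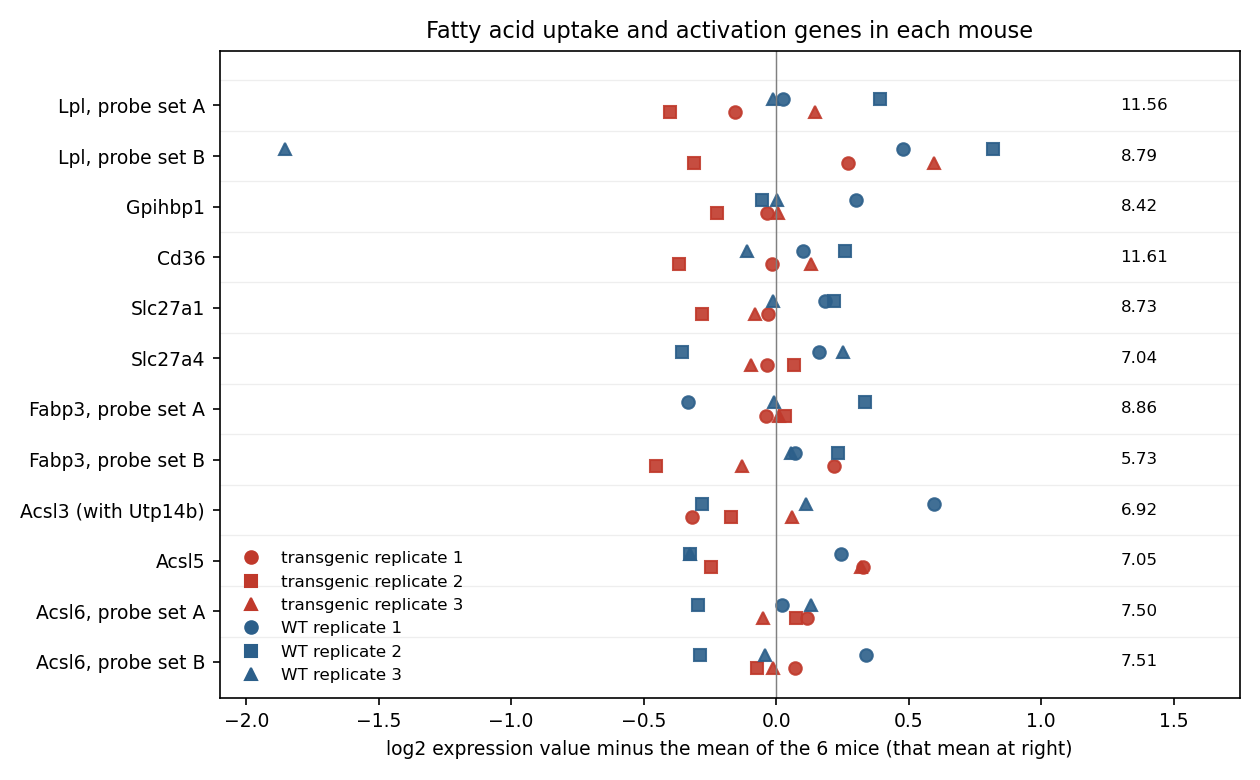
Log2 expression value of each mouse minus the mean of the 6 mice (horizontal axis, that mean printed at right) for the 12 member probe sets, with red marks for transgenic and blue marks for WT replicates 1 to 3. The red and blue marks overlap in every row except that of Slc27a1, and WT replicate 3 lies far to the left on Lpl probe set B at a log2 value of 6.94.

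Fabp3 encodes the heart-type fatty acid binding protein, the main cytosolic carrier of fatty acids in muscle (chr4:130308738-130315463). On probe set A (17419215) the transgenic mice were close together, at 8.82, 8.89 and 8.87, and the WT mice spread around them, at 8.53, 9.19 and 8.85. The means were 8.86 ± 0.04 (SD, n = 3) and 8.86 ± 0.33 (SD, n = 3), a ratio of 1.002 (95% confidence interval 0.729 to 1.38, adjusted p = 1, limma). Probe set B (17430628) was numbered between Serinc2 and Zcchc17, a gene whose annotated span overlaps the end of Fabp3. It was dim, with values of 5.95, 5.28 and 5.60 in transgenic and 5.80, 5.96 and 5.78 in WT mice. Both probe sets had a fold change whose interval included 1, and their values over the 6 mice were weakly related (r = 0.11).

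Acsl3 encodes an acyl-CoA synthetase of the endoplasmic reticulum and lipid droplets (chr1:78657825-78707743). Its probe set (17214685) also carries the symbol Utp14b, so the signal cannot be assigned to Acsl3 alone. The log2 values were 6.60, 6.74 and 6.98 in transgenic mice and 7.51, 6.63 and 7.03 in WT mice. WT replicate 1 was the highest, and WT replicate 2 was among the transgenic values. The transgenic level was 0.820 of the WT level (95% confidence interval 0.549 to 1.22, adjusted p = 1, limma). Without WT replicate 1 it was 0.959, and leaving out 1 mouse at a time gave log2 fold changes of -0.50 to -0.06.

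Acsl5 encodes a synthetase of mitochondria and endoplasmic reticulum that is abundant in liver and intestine (chr19:55251861-55296628). Its log2 values on probe set 17360462 were 7.38, 6.80 and 7.37 in transgenic mice and 7.29, 6.72 and 6.72 in WT mice. The 6 mice formed a high set of 3 and a low set of 3, and both sets held transgenic and WT mice. Transgenic mice had 1.20 times the WT level (95% confidence interval 0.812 to 1.79, adjusted p = 1, limma). The mean of the 8 hepatocyte genes was high in the same 3 mice (8.31, 9.21 and 9.12) and low in the other 3 (5.48, 6.92 and 5.45). Over the 6 mice Acsl5 and that mean had r = 0.91 and rho = 0.77 (exact permutation p = 0.0708 and 0.103, adjusted p = 0.921 and 0.87 over 54 pairs of members and marker lists). This comparison was added after seeing the data, and r was 0.91 without the 2 mice farthest from the median. The part of hepatocyte transcripts in the Acsl5 values was not tested. None of the 54 r had a raw exact permutation p under 0.05. By rho, 2 pairs did and none after adjustment, Slc27a1 with the slow fiber list (rho = 0.94, exact permutation p = 0.0167, adjusted p = 0.87) and Acsl6 probe set B with the endothelial list (rho = 0.89, exact permutation p = 0.0333, adjusted p = 0.87). Their r were 0.66 and 0.57, and 0.14 and 0.99 without the 2 mice farthest from the median.

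Acsl6 encodes a synthetase best known from brain, where it activates polyunsaturated fatty acids, and from erythroid cells (chr11:54303805-54364756). On probe set A (17249640) the log2 values were 7.61, 7.57 and 7.45 in transgenic and 7.52, 7.20 and 7.63 in WT mice. On probe set B (17262830) they were 7.58, 7.44 and 7.50 in transgenic and 7.85, 7.22 and 7.47 in WT mice. WT replicate 2 was lowest on both probe sets, while the highest mouse was WT replicate 3 on A and WT replicate 1 on B. The ratios were 1.07 (95% confidence interval 0.817 to 1.4) and 0.995 (95% confidence interval 0.728 to 1.36), and the sign of each depended on single mice.

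Replicate 2 of each group often held an extreme value among the members. How often this holds over all probe sets was not counted. Transgenic replicate 2 had the lowest value on 5 of the 12 probe sets and the highest on none. WT replicate 2 had the highest value on 6 and the lowest on 3. On Cd36, Slc27a1 and Lpl probe set A these were the lowest and the highest mouse, so replicate 2 of both groups widened the difference between the means of these genes. The same mice were lowest and highest on Fabp3 probe set B. Without transgenic replicate 2 the log2 fold changes were -0.03 for Cd36, -0.19 for Slc27a1, -0.14 for Lpl probe set A and -0.07 for Fabp3 probe set B. Without WT replicate 2 they were -0.08, -0.22, -0.15 and -0.18 in the same order, against -0.17, -0.26, -0.27 and -0.24 with all mice. Leaving out the lowest transgenic or the highest WT mouse can only shrink such a difference, so the smaller values were fixed in advance. All of them kept their sign.

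Members were then compared in pairs over the 6 mice, each by 1 probe set, which gave 36 pairs. The raw p of r was under 0.05 in 3 pairs, Cd36 with Lpl, Fabp3 with Acsl6 and Cd36 with Slc27a1, and the adjusted p in 0, with a smallest adjusted p of 0.2. Cd36 and Lpl, receptor and lipase, had r = 0.93 and rho = 0.94 (exact permutation p = 0.0139 and 0.0167, adjusted p = 0.25 and 0.3). Without WT replicate 2 and transgenic replicate 2, the 2 mice farthest from the median of Cd36, r was 0.61. Leaving out the farthest mice narrows the range and can lower r by itself, so this value cannot show what the relation rests on. On deviations from the group means r was 0.92. Fabp3 and Acsl6 had opposite orders, with r = -0.98 and rho = -0.94 (exact permutation p = 0.00556 and 0.0167, adjusted p = 0.2 and 0.3). Their r was -0.88 without the 2 mice farthest from the median. That pair used Acsl6 probe set B, numbered among genes of the opposite strand. With probe set A r was -0.65 (exact permutation p = 0.218), and it turned to 0.80 without the 2 mice farthest from the median, so the relation was not shared by both probe sets. Cd36 and Slc27a1 had r = 0.84 and rho = 0.60 (exact permutation p = 0.0444 and 0.242, adjusted p = 0.392 and 0.791), with r = 0.21 without the 2 farthest mice. Gpihbp1 and the Acsl3 probe set, with the third largest r, had r = 0.84 and rho = 0.71 (exact permutation p = 0.0569 and 0.136, adjusted p = 0.392 and 0.7), with r = 0.95 when the 2 farthest mice were left out. None of these relations passed the adjustment.

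**Figure D4:**
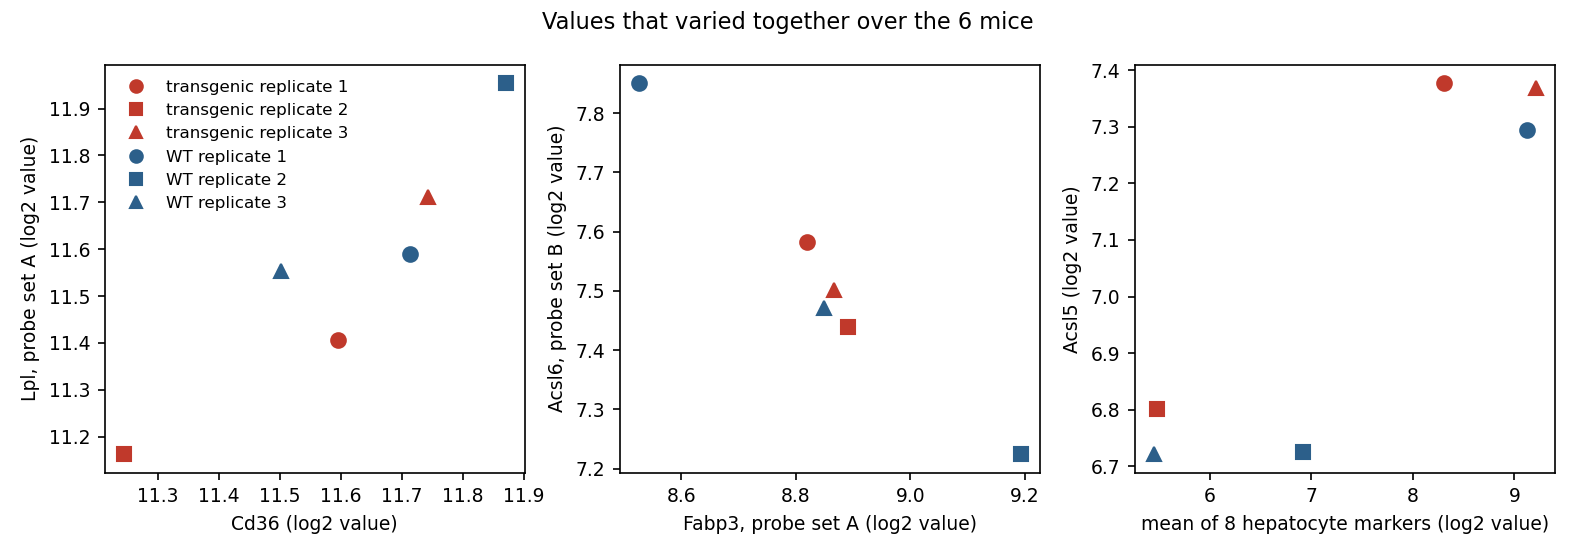
Log2 values of the 6 mice (red transgenic, blue WT, 1 mark shape per replicate number) for Cd36 and Lpl probe set A (left, r = 0.93), Fabp3 probe set A and Acsl6 probe set B (middle, r = -0.98), and the mean of 8 hepatocyte markers and Acsl5 (right, r = 0.91). Points of both groups mix along each relation, and in the left and middle panels 2 mice lie at the far ends.

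The rest of the pathway was measured by 66 probe sets for 57 of 58 genes chosen by their textbook roles. Of these, 38 had a higher and 28 a lower transgenic mean, with a median log2 fold change of 0.02. By limma 0 of the 66 passed the study threshold, beside 1.49% of all probe sets. An unadjusted p under 0.05 was found for 1, beside 2.9% of all probe sets, and an adjusted one for 0. With the methods' t-test 3 were under 0.05 unadjusted (Fabp5, Fabp6 and Acot11), beside 3.3% of all probe sets, and 0 adjusted. The groups lay apart in 3 of the 66, beside 7.21% of all probe sets. Median log2 fold changes by role were 0.11 for intravascular lipolysis, 0.02 for membrane uptake, 0.08 for endothelial control, 0.08 for intracellular binding, -0.04 for other acyl-CoA synthetases and -0.12 for thioesterases, which cut acyl-CoA back to free fatty acid. The 1 probe set under an unadjusted 0.05 was of Fabp5, the binding protein of skin, macrophages and endothelium. Its log2 values were 6.65, 6.47 and 6.71 in transgenic mice and 6.42, 6.22 and 5.99 in WT mice, so that the groups lay apart. The ratio was 1.32 (95% confidence interval 1.003 to 1.73, adjusted p = 1, limma), under the fold minimum of 1.5. The other 3 probe sets of Fabp5 had ratios of 1.05 to 1.25 and overlapping groups. The part of the macrophage and endothelial lists, of which the first had the higher transgenic mean in 5 of 5 markers, was not tested.

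**Figure D5:**
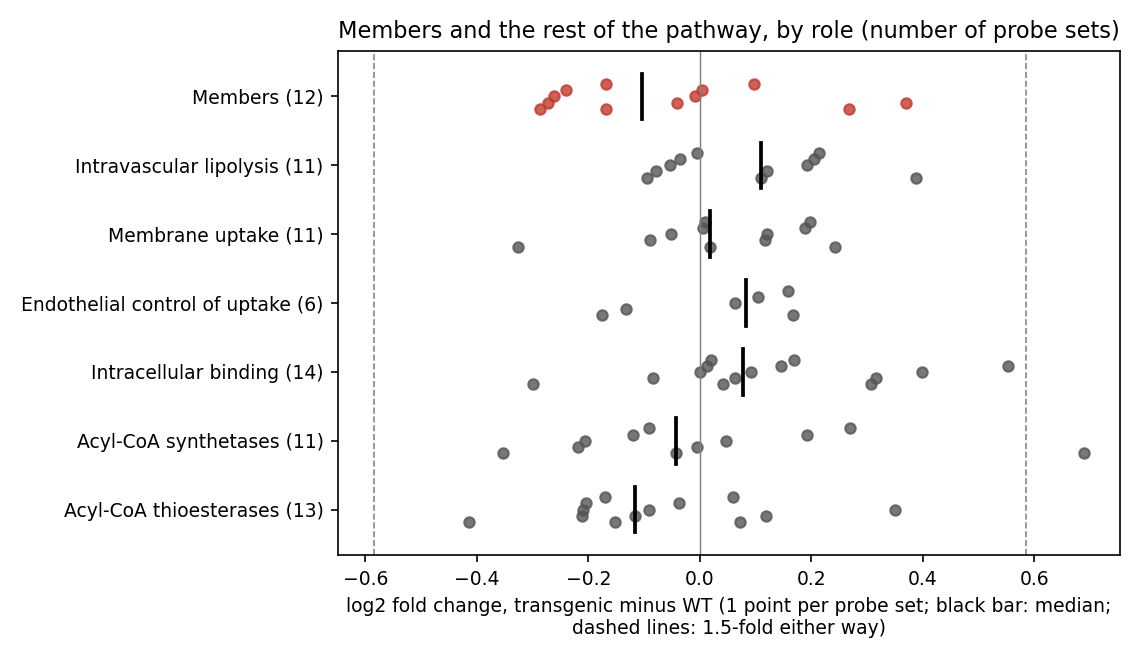
Log2 fold change (transgenic minus WT) of each probe set, with members in red, the rest of the pathway in gray by role, black bars for medians and dashed lines at a 1.5-fold change either way. The median is -0.10 for the 12 members and between -0.12 and 0.11 in the other rows, and the only point past a dashed line, an Acss1 probe set at 0.69, did not pass the study threshold (adjusted p = 1, limma).

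Among the partners of Lpl, Angptl4, an inhibitor of the lipase, gave log2 values of 6.51, 5.50 and 6.94 in transgenic and 5.95, 5.76 and 6.07 in WT mice. Transgenic replicate 2, the mouse with the lowest value on Lpl probe set A, was also lowest in Angptl4. The ratio was 1.31 (95% confidence interval 0.733 to 2.34, adjusted p = 1, limma), and without that mouse it was 1.74 and past the study threshold (adjusted p = 1, limma). Lipg, the endothelial lipase, had a ratio of 1.16 and Lmf2, a relative of the lipase maturation factor, of 1.15. Around membrane uptake, Cav3, the caveolin of muscle, had a ratio of 0.798 and Slc27a6, the FATP of heart, of 1.09. Got2, an aminotransferase also called the plasma membrane fatty acid binding protein, had 1.004 on its bright probe set (mean log2 values of 12.45 in both groups). Its dimmer probe set (6.79 in transgenic, 6.55 in WT mice) had 1.18. That probe set was numbered among genes of another chromosome, and WT replicate 3 was lowest on it at 5.94. The endothelial regulators Flt1, Vegfb and Meox2 had ratios of 0.886, 0.913 and 1.08. None of these had an unadjusted p under 0.05 with all 6 mice.

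Beside Fabp3, the bile acid binding protein gene Fabp6 was dim and had a ratio of 0.813, with groups apart. Beside the Acsl members, Acss1, the mitochondrial acetyl-CoA synthetase, had 2 probe sets of opposite sign. The ratios were 0.783 (95% confidence interval 0.567 to 1.08) and 1.61 (95% confidence interval 0.826 to 3.15), and on the second of them WT replicate 3 was lowest at 5.11, as it was on Lpl probe set B. Acss3 had a ratio of 0.867. Of the thioesterases, Acot4 had ratios of 1.28 and 0.9747 on its 2 probe sets, the second of which was numbered among genes of the opposite strand. Them4 had a ratio of 0.751. Acot11 had one of 0.865, with groups apart on the probe set that carries its symbol alone. For Fabp5, Fabp6 and Acot11, as for Slc27a1, the exact permutation test gave p = 0.1, the smallest it allows.

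Several members are known targets of PPAR transcription factors, which bind a direct repeat, AGGTCANAGGTCA. Both strands of 300-base promoter windows (250 bases before to 50 after a start site, RefSeq, GRCm38.p6) were searched for it. The RefSeq table held 11 windows of 7 members, Cd36, Fabp3, Slc27a1, Slc27a4, Acsl3, Acsl5 and Acsl6. Among them 3 windows had a match with at most 3 mismatches, and these are shown with the matched 13 bases in capitals and flanks in lower case, 5′ to 3′ on the strand of the gene. Cd36 had 2 mismatches in the window chr5:17835847-17836146 (minus strand), with the match read on the opposite strand and its first base at -63. Acsl6 had 3 in chr11:54303574-54303873 (plus strand), read on the opposite strand at -179, and Acsl5 had 3 in chr19:55253119-55253418 (plus strand), read on the gene strand at -14.
Cd36: tggttctcTGGCCTCTGACTTacttggat
Acsl6: accttgtgTGGCCTCCAACCTgaccttga
Acsl5: tgtaagagGGGTCACAGAACAcatttcat

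Of 32851 windows of this length, 3.86% had a match with at most 2 mismatches and 24.6% with at most 3, so matches like those of Acsl5 and Acsl6 are common. The match of Cd36 lies inside the annotated span of the gene, before 1 of its start sites. Ratios of transgenic to WT level were 0.890 for Cd36, 1.20 for Acsl5, and 1.07 and 0.995 for the probe sets of Acsl6. The confidence interval of each ratio included no change, and whether the 3 genes moved together was not tested. A match of letters is a description of the window and no measured binding site.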

How the data were processed

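Total RNA of gastrocnemius from 3 transgenic and 3 WT mice was labelled with biotin and hybridized by the authors, with 1 Mouse Gene 2.0 ST array (Affymetrix) per mouse. The authors deposited normalized log2 values, for which the submitters' processing notes name RMA. They lie between 0.896 and 14.2. RMA draws the probe values of the arrays to 1 distribution, so that a shift of all genes together would not be seen. It then summarizes many probes into 1 value. The deposited values still differed somewhat between arrays, with medians of 5.71 (WT replicate 1) to 5.88 (WT replicate 2). Their SD was 1.96 and 1.82 in the same 2 mice, the largest and the smallest. Gene names came from the platform annotation, in which 23521 probe sets have 1 symbol, 1820 several and 16004 none. Gene positions and promoter windows came from RefSeq tables (GRCm38.p6).

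All 41345 probe sets were fitted with limma 3.58.1 (R 4.3.3), transgenic minus WT, and p-values were adjusted by the Benjamini-Hochberg method over all of them. The tests are two-sided, and the script was tested on simulated data. Number of mice limits the precision. Calls at the study threshold used an unadjusted p under 0.05 and at least 1.5-fold. Correlations were tested with exact permutations over 720 pairings (Python 3.11.15, scipy 1.17.1). In pairs each member stood by its brightest probe set with its symbol alone, except Acsl3, whose only probe set also names Utp14b. Named were all members, the 3 pairs with the largest r, and, of the wider list, calls and the up to 3 smallest p per role. The members, lists and tests were chosen with earlier results of these data known. Alternatives were the methods' t-test, quantile normalization, median centring, a filter on dim probe sets, array quality weights and a replicate block. Further ones were 1 mean value per gene and leaving out each mouse.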

Additional observations from a re-analysis of the deposited data

How the results depend on the processing

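Among the members, the count past the study threshold stayed at 0 with the methods' t-test, quantile normalization and arrays centred on their medians. It was also 0 with the filter on dim probe sets (11 members left) and with each mouse left out. With array quality weights it was 1 of 12, the second probe set of Lpl, beside 6.31% of all probe sets. The wider list had 0 such calls with all mice. With array quality weights it had 4 of 66 (Got2, Fabp1, Acss1 and Fabp5), beside the same 6.31%. Leaving out 1 mouse gave 0 to 1, the 1 being Angptl4 without transgenic replicate 2, beside 2.06% of all probe sets. In every setting 0 of all probe sets passed an adjusted p of 0.05. The count over all probe sets was 618, and 281 with the methods' t-test, 146 with the filter, 2610 with array quality weights and 732 to 1335 with 1 mouse left out.

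With array quality weights the log2 fold change turned to -0.065 and 0.027 for Acsl6 probe sets A and B, and to 0.045 for Cd36. Leaving out 1 mouse gave -0.027 to 0.19 and -0.15 to 0.16 for these Acsl6 probe sets, -0.23 to 0.076 for Slc27a4, -0.16 to 0.17 for Fabp3 probe set A and -0.46 to 0.87 for Lpl probe set B, so that their sign depended on single mice. Apart from the array weights, the cause was not tested. With the filter on dim probe sets, the median log2 fold change of the members was -0.04.

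Replicate numbers occur in both groups. Deviations of same-numbered mice from their group means had correlations over all probe sets of 0.33, 0.40 and -0.17. Mice of unlike number had correlations of -0.46 to 0.17. Deviations within a group of 3 depend on each other, so these values cannot decide whether the numbers mark a pairing. With the replicate number as a block, 0 members and 921 of all probe sets passed the study threshold, and the median of the members was -0.10.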
